A study of Mus musculus with 10 samples.

Results

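The genes described here encode proteins that take up, store, release and sense iron. They are Tfrc, Fth1, Ftl1, Slc40a1, Ireb2, Steap3, Ncoa4 and Hfe, which were chosen by gene symbol for these roles and not by a measured value, and they make up 8 of the 21959 genes in the authors' expression table. RNA was sequenced from 10 tumors of 4T1 cells, an established mouse mammary carcinoma line used as a stand-in for the triple-negative form of the disease. The cells had been placed under the abdominal skin of female BALB/c mice that were 5 to 6 weeks old when obtained. Mice of the exercise group (E, n = 5) could run as fast and as far as they chose, those of the non-exercise group (NE, n = 5) had ordinary cages, and all tumors were collected at day 21. Each tumor is named by its group and number, E1 to E5 and NE1 to NE5. The question was whether the level of iron gene mRNA in the tumor differed with running.

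Cells take up most of their iron as a complex with the serum protein transferrin, which binds the transferrin receptor and is carried into endosomes, where the iron is released and reduced. Iron beyond immediate need is stored in ferritin, a hollow shell of heavy and light chains, and leaves the cell through ferroportin. Iron regulatory proteins bind RNA stem-loops called iron-responsive elements when iron is scarce, which blocks translation of ferritin and ferroportin mRNA and protects transferrin receptor mRNA from decay. Macrophages recycle iron from engulfed red cells, so that in a tumor both the cancer cells and the infiltrating myeloid cells use these genes.

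Between 15045613 and 20646763 reads were counted on genes in an E tumor (median 18645694) and between 18706032 and 23092251 in an NE tumor (median 22723771). The E libraries were shallower (exact two-sided permutation p = 0.0317, where the smallest p that 252 assignments allow is 0.00794). All 8 iron genes passed the filter on low counts, and the lowest count of any of them was 198 reads, for Slc40a1 in E1. That count corresponds to 9.59 CPM (reads scaled to the total count of the tumor) with a 95% Wilson interval of 8.34 to 11.02, which covers counting error only, since duplicates made by PCR could not be recognized.

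The tumors were bulk tissue, in which fewer cells of a type and less RNA per cell cannot be told apart. Markers of mammary carcinoma epithelium were low in tissue labelled as mammary cancer: Epcam lay between 0.536 and 3.09 CPM and Krt8 between 0 and 1.21 CPM. The summed level of 9 such markers lay between 20.9 and 48.2 CPM. The largest part of this sum came from Krt19, or from Cdh1 in E4 and E5. Only 4 of the 9 passed the filter on low counts. Macrophage or monocyte markers summed to 4532, 3511, 2688, 3113 and 4361 CPM in E1 to E5 and to 1365, 3464, 3852, 4338 and 2984 CPM in NE1 to NE5, with the largest part from Lyz2. NE1 was the lowest by a wide gap, and the remaining tumors of both groups overlapped. Neutrophil markers summed to 293 CPM in E5 and to between 11.9 and 50.6 CPM in the other tumors. E5 also held 15764 CPM of fibroblast markers, against at most 5110 CPM elsewhere. Skeletal muscle markers summed to 27913 CPM in NE4, to 8.83 CPM in NE1 and to between 133 and 4333 CPM in the other tumors. Erythroid markers, which bear on blood left in the piece, summed to between 6.92 and 56.4 CPM.

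No iron gene was called different between E and NE. In edgeR's quasi-likelihood test over 13517 genes, a gene was called when its fold change was 2 or more and its false discovery rate (FDR) 0.05 or less, and 0 genes passed (0.0%), whether among the 8 or in the whole table. The other tools (edgeR's exact test, DESeq2, limma-voom and limma-trend) also called 0 genes, with 349, 800, 1800 and 644 genes at an unadjusted p of at most 0.05. At the same threshold in the quasi-likelihood test, at an unadjusted p of at most 0.05, 1 of the 8 genes (Slc40a1, higher in E) passed, against 657 of all genes tested (4.86%), of which 347 were higher in E (2.57%) and 310 lower (2.29%). None of the 8 had non-overlapping CPM between the groups, a pattern that 98 of the 13517 genes showed (0.725%). The share among the 8 was thus 12.5%, but it is that of a single gene, and so small a list says little about iron genes as a class. Without NE1 the count of all genes at an unadjusted p of at most 0.05 was 1350, without E5 it was 372, and without NE3 it was 400.

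Levels can be set side by side between genes only per length, as FPKM (reads scaled to the authors' gene length and to all counted reads). On this scale Fth1 led with a median of 354 FPKM over the 10 tumors, followed by Ftl1 at 62.8 FPKM and Tfrc at 20.5 FPKM. Ireb2 (13.4 FPKM), Steap3 (11.97 FPKM), Hfe (11.8 FPKM) and Ncoa4 (8.04 FPKM) formed a middle group, and Slc40a1 was the lowest at 1.52 FPKM. The lowest Fth1 value lay above the highest Ftl1 value, the lowest Ftl1 value above the highest Tfrc value, and the lowest Ncoa4 value above the highest Slc40a1 value. Between Tfrc and Ncoa4, each neighbor in the order overlapped the next: Tfrc exceeded Ireb2 in 8 of 10 tumors, and Ireb2 exceeded Steap3 in 5 of 10. The authors' gene lengths were 1.0 to 3.73 times those of the principal transcript of each gene. With the principal transcript as the length, a choice made after seeing the data, the medians were 1323 for Fth1, 86.9 for Ftl1, 25.99 for Tfrc, 22.1 for Ireb2, 18.5 for Ncoa4, 13.3 for Steap3, 11.8 for Hfe and 4.06 for Slc40a1, so that Ncoa4 then stood above Steap3 and Hfe.

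**Figure D1:**
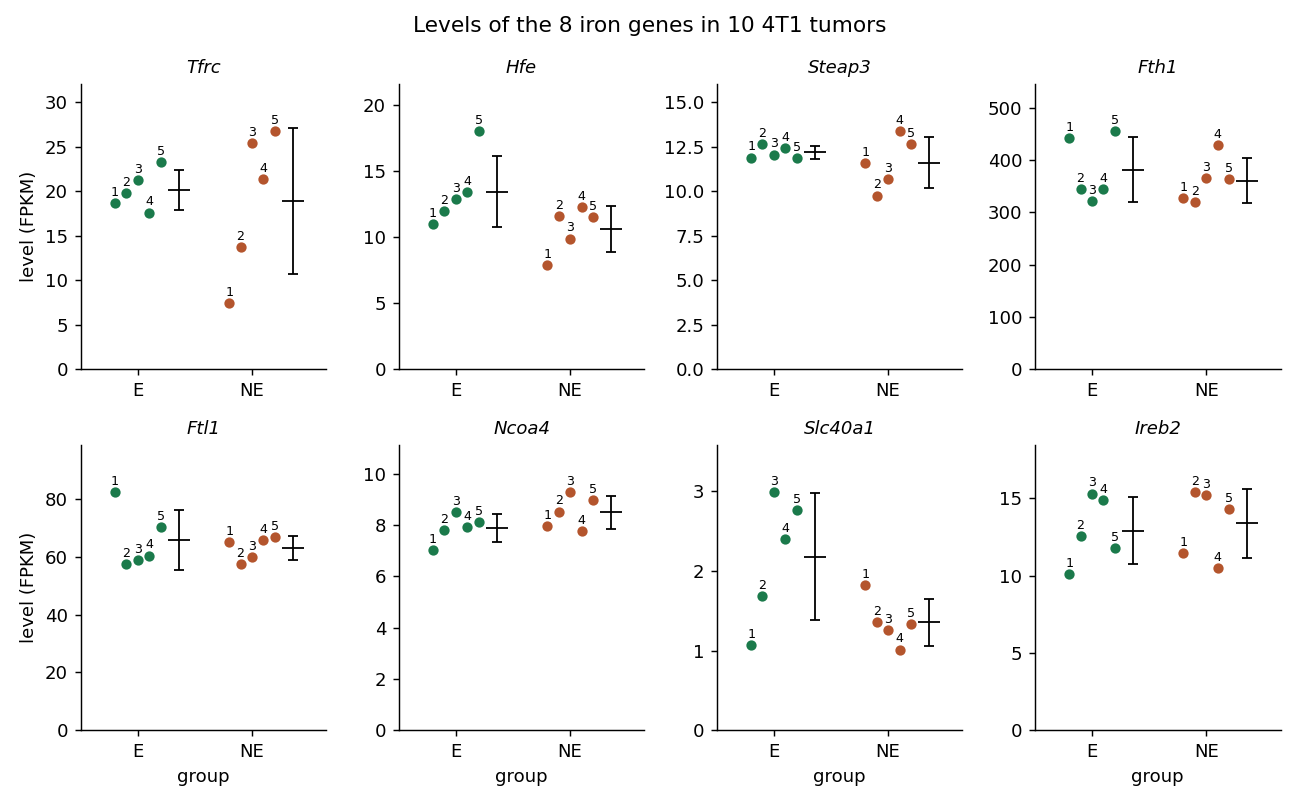
Level of each of the 8 iron genes in FPKM (vertical axis, from 0) in the E and NE tumors (horizontal axis), where each point is a tumor marked with its replicate number and the black bar is the group mean ± SD (n = 5). The groups overlap for every gene, with Slc40a1 between 1.07 and 2.99 FPKM in E and between 1.01 and 1.82 FPKM in NE.

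Tfrc encodes the transferrin receptor, the main gate for iron uptake. Its level was 18.7, 19.8, 21.3, 17.6 and 23.3 FPKM in E1 to E5 and 7.41, 13.8, 25.4, 21.3 and 26.8 FPKM in NE1 to NE5. All E values lay inside the NE range, NE1 was the lowest tumor and NE5 the highest. The group means were 20.2 ± 2.23 FPKM in E and 18.9 ± 8.20 FPKM in NE (SD, n = 5), and the log2 fold change was 0.05 (SE 0.30, edgeR quasi-likelihood FDR = 0.987). The sign of this estimate rested on single tumors, as it was −0.15 without NE1, −0.046 without NE2 and −0.0024 without E5. The spread of Tfrc over the 10 tumors, an SD of 0.55 in log2(CPM + 1), was wider than that of 91.9% of the genes tested.

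Hfe encodes an MHC class I-like protein that binds the transferrin receptor and takes part in the control of hepcidin, the hormone that removes ferroportin from the cell surface. Hfe stood at 11.01, 11.9, 12.9, 13.4 and 18.01 FPKM in E1 to E5 and at 7.90, 11.6, 9.88, 12.2 and 11.5 FPKM in NE1 to NE5. E5 was the highest tumor and NE1 the lowest, the E tumor exceeded the NE tumor in 21 of 25 pairings, and the groups overlapped between 11.01 and 12.2 FPKM. The log2 fold change was 0.30 (SE 0.16, unadjusted p = 0.0864, edgeR quasi-likelihood FDR = 0.897). The unadjusted p was 0.0455 without E1 and 0.0378 without NE4. Without E5, the tumor with the most neutrophil and fibroblast marker RNA, the log2 fold change was 0.18 (unadjusted p = 0.235 by edgeR), and without E5, NE1 and NE4 together, a choice made after seeing the data, it was 0.15. The part of those other cells in the Hfe values was not tested.

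Steap3 encodes the endosomal reductase that converts the iron released from transferrin so that it can cross into the cytosol. Steap3 was measured at 11.9, 12.6, 12.1, 12.4 and 11.9 FPKM in E1 to E5 and at 11.6, 9.75, 10.7, 13.4 and 12.6 FPKM in NE1 to NE5. The E tumors were nearly alike, with a coefficient of variation of 2.84% against 12.5% in NE, and all lay inside the NE range. Whether the spread itself differed was not tested. The log2 fold change was 0.03 (SE 0.090, edgeR quasi-likelihood FDR = 0.960), and it was −0.023 without NE2.

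Fth1 encodes the heavy chain of ferritin, which oxidizes iron as it enters the shell. It was the most abundant of the 8 genes in every tumor, at 442, 345, 322, 344 and 455 FPKM in E1 to E5 and at 327, 320, 366, 429 and 363 FPKM in NE1 to NE5. E5, E1 and NE4 were high, the other 7 tumors lay between 320 and 366 FPKM, and the groups overlapped over nearly their whole range. The group means were 382 ± 62.1 FPKM in E and 361 ± 43.2 FPKM in NE (SD, n = 5), and the log2 fold change was 0.04 (SE 0.12, edgeR quasi-likelihood FDR = 0.963). Without E5 the estimate was −0.022 and without E1 it was −0.0073.

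Ftl1 encodes the light chain of ferritin, which promotes formation of the iron core. Its values were 82.4, 57.6, 58.8, 60.5 and 70.3 FPKM in E1 to E5 and 65.0, 57.4, 60.0, 65.8 and 66.9 FPKM in NE1 to NE5. E1 and E5 were the highest tumors, and the other E tumors lay inside the NE range. Between the groups the log2 fold change was 0.03 (SE 0.10, edgeR quasi-likelihood FDR = 0.970), and it was −0.056 without E1 and −0.00093 without NE2. Ftl1 levels are uncertain because 78.9% of the 50-base stretches of its principal transcript occur in transcripts of 15 other genes, which include processed pseudogenes and microRNA genes. Of these, Ftl1-ps1 is in the authors' table with 12 to 44 reads per tumor, and how reads with several matches were counted is not given in the sources used here. Ftl1 also overlaps Gm10252 and Gm22133 in the reference annotation.

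Ncoa4 encodes the receptor that carries ferritin to the lysosome, where its iron is set free. Ncoa4 was at 7.03, 7.79, 8.51, 7.91 and 8.12 FPKM in E1 to E5 and at 7.97, 8.52, 9.28, 7.78 and 8.97 FPKM in NE1 to NE5. NE3 was the highest tumor and E1 the lowest, the NE tumor exceeded the E tumor in 19 of 25 pairings, and the groups overlapped. Its log2 fold change was −0.14 (SE 0.069, unadjusted p = 0.0646, edgeR quasi-likelihood FDR = 0.897). Its sign held in all 19 alternatives, from −0.21 to −0.097. With single tumors left out, the unadjusted p ranged from 0.0250 without E3 and 0.0370 without NE1 to 0.152 without NE3, and it was 0.00530 with limma-voom and 0.169 with limma-trend. Ncoa4 is uncertain as well, since 43.1% of the 50-base stretches of its principal transcript also occur in the processed pseudogene Gm6768. For Fth1 and Hfe these shares were 6.59% and 2.02%, and for Tfrc, Slc40a1, Ireb2 and Steap3 0.0%.

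Slc40a1 encodes ferroportin, the iron exporter of mammalian cells. Its level was 1.07, 1.68, 2.99, 2.40 and 2.76 FPKM in E1 to E5 and 1.82, 1.36, 1.25, 1.01 and 1.33 FPKM in NE1 to NE5. E3, E5 and E4 lay above all NE tumors, whereas E1 lay below 4 of them and E2 below NE1, so that the groups overlapped. Behind these values stood 198, 282, 554, 400 and 374 reads in E and 379, 229, 256, 209 and 256 reads in NE. The group means were 2.18 ± 0.795 FPKM in E and 1.36 ± 0.295 FPKM in NE (SD, n = 5). The log2 fold change was 0.66 (SE 0.26), a fold change of 1.58, and E exceeded NE in 20 of 25 pairings. Its unadjusted p of 0.0306 ranked 350 among the 13517 genes, and the edgeR quasi-likelihood FDR was 0.897, so that it did not pass. Leaving out single tumors gave estimates from 0.51 to 0.84. The unadjusted p was 0.00205 without E1, 0.0175 without NE1 and 0.0248 without E2, and it exceeded 0.05 when E3, E4, E5, NE2, NE3, NE4 or NE5 was left out, with a maximum of 0.0850. Over the same 10 fits the FDR was never below 0.477.

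Ireb2 encodes iron regulatory protein 2, which binds iron-responsive elements when iron is scarce and is degraded when iron is plentiful. Ireb2 was found at 10.1, 12.5, 15.3, 14.9 and 11.8 FPKM in E1 to E5 and at 11.5, 15.4, 15.2, 10.51 and 14.3 FPKM in NE1 to NE5. Both groups held low and high tumors and covered nearly the same range. Its log2 fold change was −0.08 (SE 0.14, edgeR quasi-likelihood FDR = 0.946), and it was 0.0039 without E1. As the protein is controlled by degradation, mRNA levels do not measure its activity.

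The elements that iron regulatory proteins bind lie in the untranslated regions (UTRs) of 4 of the 8 genes, and their sequences are shown because they tie storage, export and uptake to the same sensor. The search took the letters C, then any 5 bases, then the 6-base loop CAGTGN, then 5 bases that pair with the first 5, with G-T pairs allowed, on the sense strand of 21901 principal transcripts (GENCODE M21, GRCm38). Fth1, Ftl1 and Slc40a1 each held a match in the 5′ UTR and Tfrc held 4 in the 3′ UTR, while Ireb2, Steap3, Ncoa4 and Hfe held none in the transcript searched. Of all principal transcripts, 258 (1.18%) held a match anywhere, 20 (0.0913%) in the 5′ UTR, 133 (0.607%) in the coding part and 106 (0.484%) in the 3′ UTR. A match is a description of the letters, and binding was not measured. In the sequences from GENCODE, each of 30 bases and written 5′ to 3′ on the strand of the gene, capitals mark the loop. The Fth1 element lies at chr19:9982732-9982761 on the forward strand, the Ftl1 element at chr7:45459778-45459807 on the reverse strand and the Slc40a1 element at chr1:45925464-45925493 on the reverse strand.
Fth1 5′ UTR: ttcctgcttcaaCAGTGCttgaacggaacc
Ftl1 5′ UTR: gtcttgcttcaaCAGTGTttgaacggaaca
Slc40a1 5′ UTR: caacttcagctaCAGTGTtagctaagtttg

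The 4 matches of the Tfrc 3′ UTR lie on the forward strand of chromosome 16 in GRCm38, between 32631219 and 32631739, in the order a to d. Capitals again mark the loop.
Tfrc 3′ UTR, a: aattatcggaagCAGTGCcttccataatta
Tfrc 3′ UTR, b: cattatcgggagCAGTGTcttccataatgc
Tfrc 3′ UTR, c: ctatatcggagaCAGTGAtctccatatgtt
Tfrc 3′ UTR, d: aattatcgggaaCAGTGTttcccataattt

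Because the genes with 5′ and 3′ elements respond to iron in opposite ways, and at different steps, ratios within a tumor were compared. Such ratios are free of library size. The Tfrc to Fth1 ratio of FPKM was 0.0423, 0.0574, 0.0661, 0.0512 and 0.0512 in E1 to E5 and 0.0226, 0.0430, 0.0695, 0.0498 and 0.0737 in NE1 to NE5. NE1 was the lowest, NE5 the highest, and all E tumors lay between them. The mean log2 ratio was 0.15 higher in E (exact permutation p = 0.730, Benjamini-Hochberg adjusted over 3 ratios 0.810), and without NE1 the difference was −0.12. The Tfrc to Slc40a1 ratio was 17.6, 11.8, 7.12, 7.35 and 8.45 in E1 to E5 and 4.06, 10.1, 20.3, 21.1 and 20.1 in NE1 to NE5, so that the NE tumors held both the lowest and the highest 3 values. The log2 difference was −0.39 (exact permutation p = 0.484, adjusted 0.810), and it was −0.81 without NE1, −0.60 without E1, −0.23 without NE3, −0.21 without NE4 and −0.23 without NE5. The Fth1 to Ftl1 ratio stayed between 5.03 in NE1 and 6.52 in NE4, with a log2 difference of 0.021 (exact permutation p = 0.810, adjusted 0.810), which was −0.020 without E5 and −0.025 without NE1.

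Among themselves, the 8 genes formed 28 pairs over the 10 tumors, and 0 pairs had adjusted p-values of at most 0.05 for both Pearson's r and Spearman's rho of log2(CPM + 1). At an unadjusted permutation p of at most 0.05 for both, the ferritin chains Fth1 and Ftl1 moved together, with r = 0.79 (permutation p = 0.00552, adjusted 0.120) and rho = 0.745 (p = 0.0176, adjusted 0.247), and r was 0.86 without E5 and NE4, the tumors farthest from the Fth1 median. Ireb2 and Ncoa4 gave r = 0.77 (permutation p = 0.00858, adjusted 0.120) and rho = 0.648 (p = 0.0486, adjusted 0.347), with r = 0.70 without E1 and NE4. Ftl1 and Ireb2 ran in opposite directions, with r = −0.71 (permutation p = 0.0184, adjusted 0.172) and rho = −0.758 (p = 0.0149, adjusted 0.247), but r was −0.38 without E1 and NE4. The last of these relations therefore rests on those 2 tumors. Of the 28 values of r, 17 were above 0 and 11 below.

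The iron genes were also set against scores of macrophage or monocyte, neutrophil, skeletal muscle and erythroid markers, each the mean log2(CPM + 1) of its list, which gave 32 relations. None passed for both r and rho. Fth1 came closest, with the macrophage or monocyte score at r = 0.70 (permutation p = 0.00558, adjusted 0.0893) and rho = 0.915 (p = 0.0006, adjusted 0.0192), and r was 0.59 without E5 and NE4. Within the groups, after subtraction of the group means, r was also 0.70. Without E3 the relation passed for both, with r = 0.69 (adjusted 0.0428) and rho = 0.917 (adjusted 0.0420). Fth1 and the neutrophil score gave r = 0.72 (permutation p = 0.00522, adjusted 0.0893) and rho = 0.867 (p = 0.00223, adjusted 0.0357), with r = 0.48 without E5 and NE4. Whether macrophages or other cells carried the Fth1 mRNA was not tested.

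Tfrc followed the macrophage or monocyte score at r = 0.82 (permutation p = 0.0261, adjusted 0.169) and rho = 0.612 (p = 0.0679, adjusted 0.434), but r was 0.18 without NE1 and NE2, so that this relation rests on those tumors. Hfe gave r = 0.75 with the same score (permutation p = 0.0264, adjusted 0.169) and rho = 0.236 (p = 0.516, adjusted 0.957), and r was −0.43 without E5 and NE1. With the neutrophil score Hfe gave r = 0.77 (permutation p = 0.0144, adjusted 0.154) and rho = 0.612 (p = 0.0659, adjusted 0.434), and r was 0.25 without the same 2 tumors. Slc40a1, the gene with the smallest p between the groups, had r of −0.19, 0.22, −0.45 and −0.12 with the macrophage, neutrophil, muscle and erythroid scores, and the smallest unadjusted permutation p among these r was 0.201. In the same order rho was −0.49, −0.16, −0.56 and 0.018, with the smallest unadjusted permutation p at 0.0956 for muscle (adjusted 0.437). After subtraction of the group means r was −0.43, 0.12, −0.58 and −0.025.

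**Figure D2:**
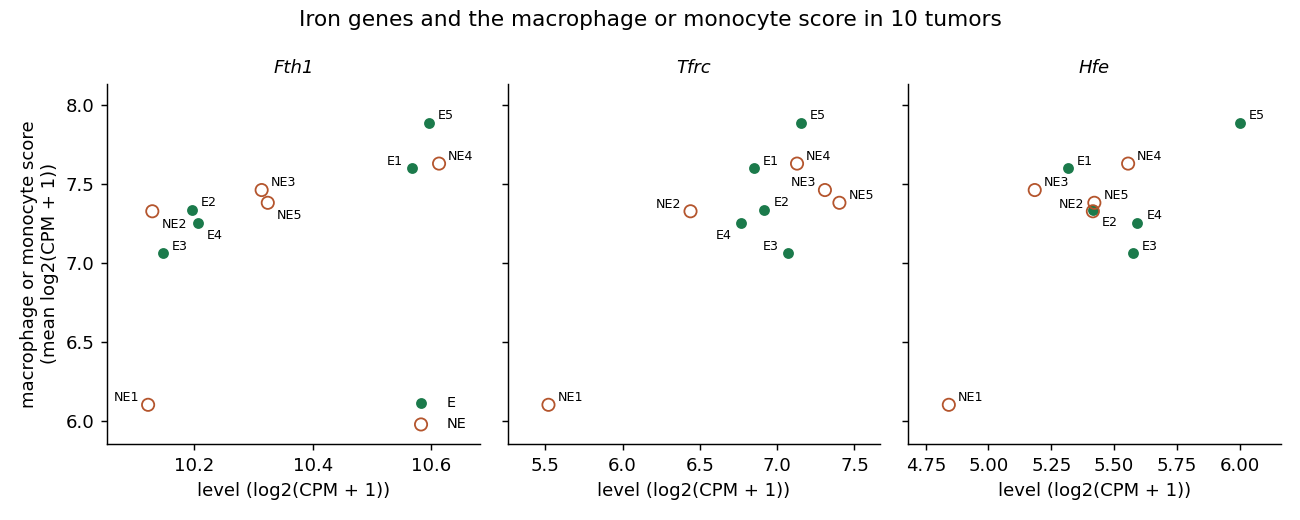
Levels of Fth1, Tfrc and Hfe as log2(CPM + 1) (horizontal axis) against the macrophage or monocyte score, the mean log2(CPM + 1) of 12 marker genes (vertical axis), in 10 tumors, with filled points for E and open points for NE. For Fth1 the order of the tumors on both axes is similar (rho = 0.915), while for Tfrc and Hfe NE1 lies far from the other tumors at the lower left.

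For each iron gene, the 2 genes with the most similar pattern were taken by Pearson's r of log2(CPM + 1) over the 10 tumors among 13509 other genes, as a description. They were Pmaip1 (r = 0.940) and Sec11c (0.928) for Tfrc, and Pmepa1 (r = 0.976) for Hfe, for which 1 gene is not reported here. Steap3 was closest to Isoc2a (r = 0.913) and Fam13a (0.901). The ferritin chains had different neighbors, with Grb2 (r = 0.955) and Ralgds (0.952) for Fth1 and Tpm3 (r = 0.922) and Rab5c (0.913) for Ftl1. Ncoa4 was most similar to Zfp54 (r = 0.965) and Ddx43 (0.952), and Slc40a1 to Rnf122 (r = 0.939) and Scara3 (0.933). The highest values were those of Ireb2, with Tax1bp1 (r = 0.991) and Atad5 (0.988). As the best of so many genes, such values are high by selection.

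The wider pathway was taken as 83 genes by role, the 8 included, of which 78 passed the filter on low counts. The storage gene Ftmt, with 0 reads in all tumors, the export genes Hephl1, Hamp and Hamp2 and the heme gene Flvcr2 did not. Hamp, which encodes hepcidin and is mainly a liver gene, had at most 3 reads in a tumor. None of the 78 genes was called and none had non-overlapping groups. At an unadjusted p of at most 0.05, 5 of the 78 passed (6.41%, against 4.86% of all genes): Slc40a1, Tfr2, Acvr1 and Fdx2 with estimates above 0 and Flvcr1 with an estimate below 0. Of the 78 estimates 43 were above 0 and 35 below, so that neither sign clearly prevailed. By other tools the count at an unadjusted p of at most 0.05 was 3 with edgeR's exact test (3.85%, against 2.58% of all genes), 4 of 76 with DESeq2 (5.26% against 5.92%), 8 with limma-trend (10.3% against 4.76%) and 11 with limma-voom (14.1% against 13.3%). It was 13 without NE1 (16.7% against 9.90%), 8 without E1 (10.3% against 5.71%), 3 without E4 (3.85% against 4.04%), 2 without E5 (2.56% against 2.73%) and 1 without NE3 (1.28% against 2.94%). In most of these fits the share of all genes moved in the same direction as that of the list. With DESeq2 and limma-trend it did not.

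Among 10 further uptake genes, all estimates were above 0 in the main comparison, with a median log2 fold change of 0.21, whereas 6221 of the 13517 genes tested were above 0. Without E5 the count was 7 of 10 and the median 0.08, and without NE4 the median was 0.52. Without E5, NE1 and NE4 together the count was 9 of 10 with a median of 0.13. With limma-voom it was 9 of 10 with a median of 0.36. With at least 10 counts in every tumor it was 7 of 7 with a median of 0.13. Markers of neutrophils (6 of 6 tested), fibroblasts (7 of 7) and macrophages or monocytes (11 of 12) also had estimates above 0. Those of skeletal muscle (0 of 11), adipocytes (0 of 4) and erythroid cells (0 of 3) did not. Estimates went both ways for markers of endothelial cells (4 of 7 above 0), T or NK cells (4 of 8) and mammary carcinoma epithelium (2 of 4). The median of the epithelium markers was −0.29. At an unadjusted p of at most 0.05 by edgeR were 2 epithelium, 2 neutrophil and 1 macrophage or monocyte markers. Of the 10 uptake genes, all but Scara5 (highest in E4, 2.65 FPKM) were highest in E5. These included Trf (53.0 FPKM) and Lrp1 (48.1 FPKM), as well as Lcn2 (24.8 FPKM) and Cd163 (16.2 FPKM), which myeloid cells express. A different mix of cells and more uptake mRNA per cell cannot be told apart here. Tfr2, a further transferrin receptor that senses iron in liver, had 3 to 28 reads and averaged 0.271 ± 0.0902 FPKM in E and 0.122 ± 0.0664 FPKM in NE (SD, n = 5), with a log2 fold change of 1.12 (SE 0.43, unadjusted p = 0.0252, edgeR quasi-likelihood FDR = 0.897). By mean FPKM over the 10 tumors the uptake genes that led were Lrp1, a receptor that takes up heme bound to hemopexin, and Trf, which encodes transferrin. Lrp1 stood at 42.4 ± 4.26 FPKM in E and 36.7 ± 4.09 FPKM in NE, with a log2 fold change of 0.18 (SE 0.084, unadjusted p = 0.0631). Trf varied from 2.22 FPKM in NE1 to 53.0 FPKM in E5 and had a log2 fold change of 0.43 (SE 0.63).

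Of the 5 further reductase genes, Steap1 and Steap2 were the most abundant, at means of 18.8 and 15.0 FPKM in E and 20.2 and 15.2 FPKM in NE. Storage and delivery were represented by Pcbp1 and Pcbp2, whose products hand iron to ferritin. They stood at 146 ± 10.7 and 70.4 ± 5.69 FPKM in E against 144 ± 6.81 and 73.5 ± 8.40 FPKM in NE. Export oxidases differed widely in level, with ceruloplasmin (Cp) at 36.2 ± 13.7 FPKM in E and 24.6 ± 9.80 FPKM in NE and hephaestin (Heph) at 0.109 and 0.124 FPKM. The log2 fold change of Cp was 0.54 (SE 0.35, unadjusted p = 0.150), and its tumors ranged from 9.70 FPKM in NE4 to 53.3 FPKM in E3.

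Iron sensing and hepcidin control were represented by 15 further genes. Acvr1, a bone morphogenetic protein receptor of the hepcidin pathway, had the smallest p of the wider list. It was at 13.7, 12.05, 13.8, 12.8 and 13.7 FPKM in E1 to E5 and at 12.1, 11.5, 11.2, 10.4 and 12.04 FPKM in NE1 to NE5. E2 alone fell inside the NE range, and the log2 fold change was 0.17 (SE 0.059, unadjusted p = 0.0134, edgeR quasi-likelihood FDR = 0.897). The most abundant genes of this role were Smad4 (36.9 FPKM in E, 36.0 FPKM in NE) and Bmpr1a (26.2 and 25.2 FPKM).

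Heme, the iron-holding ring of hemoglobin, is exported, broken down and made by separate genes. Flvcr1, described as a heme exporter, was at 8.36 ± 0.819 FPKM in E and 9.48 ± 0.793 FPKM in NE, with a log2 fold change of −0.21 (SE 0.094, unadjusted p = 0.0455, edgeR quasi-likelihood FDR = 0.897). Hmox1, the inducible heme oxygenase, averaged 60.0 ± 21.3 FPKM in E and 58.6 ± 12.3 FPKM in NE, and Pgrmc1, a heme-binding membrane protein, 50.9 ± 4.36 and 49.3 ± 4.46 FPKM. Hmox1 was highest in E5 (93.2 FPKM) and lowest in E2 (36.5 FPKM), both of the same group. In heme synthesis, Alad averaged 14.4 FPKM in E and 15.8 FPKM in NE and Urod 12.3 and 11.9 FPKM. Alas2, the erythroid first enzyme, was the remaining gene of the wider list with an iron-responsive element match, in its 5′ UTR, and had 6 to 47 reads.

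Mitochondrial iron genes, which import iron and build iron-sulfur clusters, had estimates below 0 in 12 of 16 cases, with a median log2 fold change of −0.09, and 7296 of all 13517 genes tested were below 0 as well. Without NE1 the count was 9 of 16 with a median of −0.06, and without NE4 it was 10 of 16 with a median of −0.06. Without E3 the median was −0.14, and without E5, NE1 and NE4 together the count was 7 of 16 with a median of 0.01. With limma-voom the count below 0 was 11 of 16 with a median of −0.03, and with limma-trend 12 of 16 with a median of −0.05. As skeletal muscle and adipocyte markers also had estimates below 0, a different mix of cells cannot be told apart from less of these mRNAs per cell. NE4, the tumor richest in muscle markers, was the highest of all tumors for Cisd1 (51.7 FPKM). For Slc25a37 it was the lowest of the NE tumors (33.7 FPKM). Slc25a37, the importer mitoferrin 1, was the most abundant, at 40.6 ± 5.00 FPKM in E and 41.3 ± 5.18 FPKM in NE. Cisd1, an iron-sulfur protein of the outer membrane, followed at 31.9 ± 4.68 and 37.0 ± 8.51 FPKM. Fdx2, a ferredoxin of cluster assembly with only 8 to 21 reads, had a log2 fold change of 0.67 (SE 0.28, unadjusted p = 0.0394, edgeR quasi-likelihood FDR = 0.897).

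**Figure D3:**
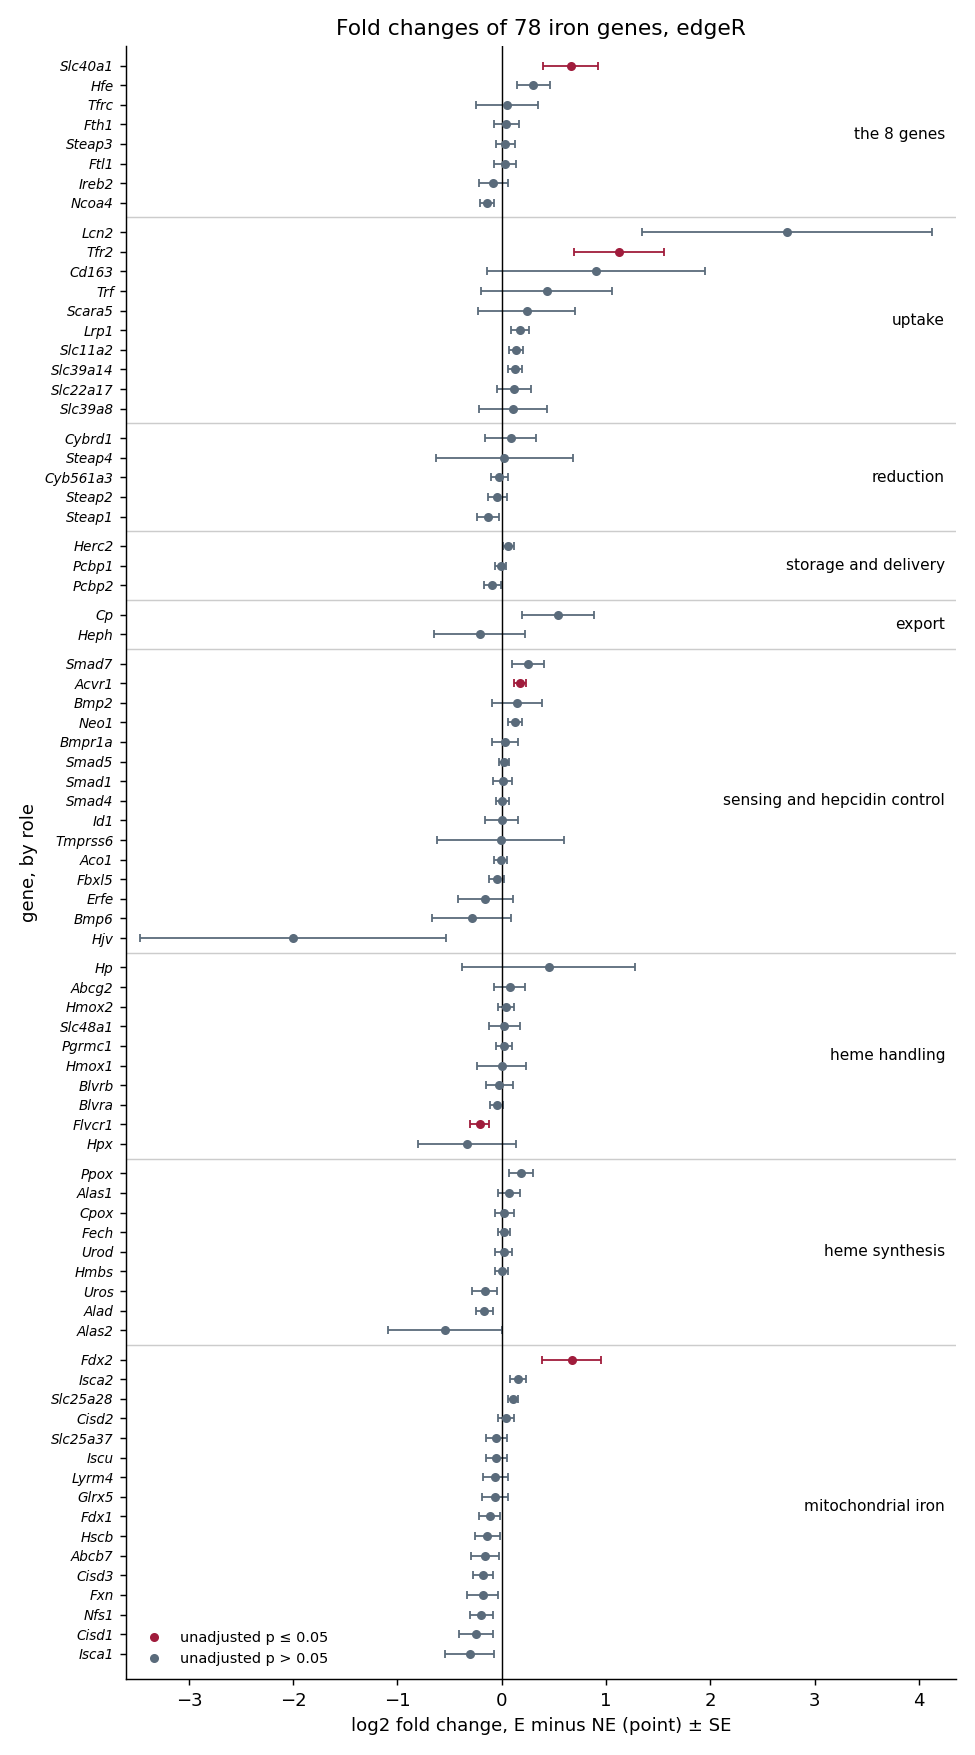
Log2 fold change, E minus NE, of 78 iron genes (horizontal axis; point ± SE derived from the F statistic of edgeR), grouped by role (vertical axis), with genes at an unadjusted p of at most 0.05 in red. The 5 red genes are Slc40a1, Tfr2, Acvr1, Flvcr1 and Fdx2, none of which passed an FDR of 0.05, and 7 of the 10 uptake estimates remain above 0 without E5.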

How the data were processed

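Messenger RNA of 10 tumors was sequenced as paired-end libraries. By the methods of the study, Hisat2 served for the alignment and Stringtie for the expression values. The deposited table holds, for every gene in every tumor, an FPKM and a count of reads as a whole number, and the sources used here do not say how the count was made. The FPKM of the authors equal count divided by length and total count (largest relative deviation 3.78e-14), so that they hold no TMM factor. The methods name a rat assembly, while the genes carry mouse identifiers. The coordinates of the table match GRCm38 for 514 of 21851 genes, and positions given here are those of GENCODE M21 (GRCm38), with no conversion. Groups and replicate numbers came from the sample labels, and no pair of libraries was a near copy.

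Differential expression was computed with edgeR 4.0.16 under R 4.3.3, with TMM factors, filterByExpr by group, the quasi-likelihood fit and test, and Benjamini-Hochberg adjustment over all genes tested. The SE of a log2 fold change is its absolute value divided by the square root of the F statistic of that test. It was repeated with DESeq2 1.42.0, with edgeR's exact test, with limma-voom and sample weights and with limma-trend on log2(FPKM + 1), both from limma 3.58.1. Further alternatives left out the TMM factors or each tumor in turn, changed the filter or the thresholds, or used the replicate number as a block. Leaving out E5, NE1 and NE4 together and the principal transcript length were added after seeing the data. Ratios were tested by exact two-sided permutation and correlations with 100000 permutations (scipy 1.17.1, Python 3.11.15). CPM in correlations and in overlaps between groups include the TMM factor, marker sums do not.

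Named are the 8 genes, the 2 most abundant genes of each role of the wider list, those at an unadjusted p of at most 0.05, and the 2 most similar genes for each of the 8, of which 1 gene is not reported here. Genes below the filter, Alas2, Lcn2, Cd163, Scara5 and genes sharing sequence were named after their values were seen. The genes and lists were chosen with earlier results of these data known. Tumor sizes were not used here.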

Additional observations from a re-analysis of the deposited data

Results flagged for a closer look

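For the 8 iron genes, the abundant or low-p genes of the wider list and the 3 ratios, 62 groups of 5 tumors were examined for a tumor far from the rest of its group, and 2 had such a tumor. About 3.1 would be found by chance. Both lie in NE4, the tumor with 27913 CPM of skeletal muscle markers. Pgrmc1 was at 41.5 FPKM in NE4, below the other NE tumors, of which the nearest was at 49.8 FPKM. Cisd1 was at 51.7 FPKM in NE4, above the nearest NE tumor at 36.3 FPKM. The part of muscle tissue in these values was not tested. None of the 8 iron genes had a tumor that far from its group.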

How the results depend on the processing

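Leaving out each tumor in turn gave log2 fold changes from −0.15 to 0.21 for Tfrc, −0.022 to 0.13 for Fth1, −0.056 to 0.079 for Ftl1, −0.16 to 0.0039 for Ireb2 and −0.023 to 0.11 for Steap3, so that none of these 5 iron genes kept its sign. Limma-voom gave −0.0025 for Tfrc and −0.0035 for Ftl1. Without E5, NE1 and NE4 together, an alternative chosen after seeing the data, Tfrc was at −0.20 and 3 of 78 genes of the wider iron list had an unadjusted p of at most 0.05 (3.85% against 6.69%). The signs for Slc40a1, Hfe and Ncoa4 held in all 19 alternatives. The log2 ratio of Tfrc to Fth1 ranged from −0.12 to 0.31 and that of Fth1 to Ftl1 from −0.025 to 0.069 when single tumors were left out. A fold change of 2 or more with an unadjusted p of at most 0.05 called 56 genes. The number of all genes at that p was 349 with edgeR's exact test, 1800 with limma-voom and 372 to 1350 without single tumors. For the wider iron list of 78 genes it was 3 with the exact test (3.85%, against 2.58% of all genes), 11 with limma-voom (14.1% against 13.3%), 8 with limma-trend (10.3% against 4.76%), 8 without TMM (10.3% against 4.68%), 3 of 69 with at least 10 counts in every tumor (against 5.31% of all genes) and 1 to 13 without single tumors (1.28% against 2.94% to 16.7% against 9.90%). With the replicate number as a block, 8 of 78 genes of the wider iron list had such a p (10.3% against 5.28%). Of the 8 main genes these were Hfe (log2 fold change 0.30, unadjusted p = 0.0294 by edgeR) and Ncoa4 (−0.14, unadjusted p = 0.0159 by edgeR), and Slc40a1 was at 0.60 (unadjusted p = 0.107 by edgeR). The block changed no call at the FDR. The study speaks of matched pairs without saying what was matched, and the data gave this pairing little support. For each gene, the deviation of a tumor's log CPM from its group mean was taken. These deviations were correlated over genes between the E and NE tumors of the same number. Number 5 gave r = 0.323, numbers 1 and 2 were near 0 (−0.010 and −0.011), and numbers 3 and 4 gave −0.22 and −0.27. Relations between iron genes and marker scores that passed numbered 0 to 1, with the 1 found without E3. The cause of these shifts was not tested.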
